A study of Homo sapiens with 6 samples.

Results

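HMOX1, GDF15, CDKN1A, ADM2 and PTX3 are stress-inducible genes that were lower in A375 melanoma cells carrying NRAS Q61K than in their NRAS wild-type counterpart. These 5 genes, of 770 on the panel, were taken by symbol from the value table because they fell in the mutant line, so the difference between the lines is their selection criterion and is described here without a test. A375 is a human malignant melanoma line with the BRAF V600E mutation. The wild-type group (A375-BRAFV600E/NRASQ61, 3 samples) and the mutant group (A375-BRAFV600E/NRASQ61K, 3 samples) both carry BRAF V600E and, by their catalogue names, a luciferase reporter, and differ by the activating NRAS mutation. Both were grown untreated in the same serum-supplemented medium and sampled within 5 population doublings of thawing. RNA was read with the NanoString nCounter PanCancer Progression panel, which counts fluorescent barcodes hybridized to each transcript without amplification. Only 1 mutant derivative was profiled and no label says that samples came from separate cultures, so line-specific differences cannot be told apart from the mutation, and p-values measure the spread between these samples, which may be technical.

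Cells answer oxidants, DNA damage, nutrient shortage and inflammatory cues through transcription factors that switch on partly overlapping sets of genes. NRF2 responds to oxidants, p53 to DNA damage, ATF4 to amino acid shortage and endoplasmic reticulum stress, and NF-kappa-B to inflammatory cytokines. HMOX1 encodes haem oxygenase, which breaks haem down to biliverdin, iron and carbon monoxide and is a textbook NRF2 target that BACH1 represses. CDKN1A encodes p21, an inhibitor of cyclin-dependent kinases and a direct p53 target. GDF15 encodes a secreted TGF-beta superfamily cytokine that both p53 and ATF4 induce and that signals through GFRAL and RET in the brainstem. ADM2 encodes adrenomedullin 2, also called intermedin, a vasoactive peptide of the calcitonin family, and PTX3 encodes pentraxin 3, a secreted pattern-recognition protein induced by NF-kappa-B that also binds the growth factor FGF2.

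The regulatory sequence directly upstream of the members is shown because each is known as a transcriptionally induced gene. The RefSeq promoter set used here (GRCh38.p14) held 4 of the 5 and had no entry for HMOX1. The 250 bases before each annotated gene start, all on the plus strand, are printed 5′ to 3′. They lie at chr19:18385908-18386157 for GDF15, chr6:36678464-36678713 for CDKN1A, chr22:50481293-50481542 for ADM2 and chr3:157436600-157436849 for PTX3. The CDKN1A window lies inside the annotated span of its gene, whose longer transcripts begin at position 36676463. Capitals mark matches to the GC box GGGCGG, to the TATA box TATAAA and to the NF-kappa-B site, on either strand.
GDF15: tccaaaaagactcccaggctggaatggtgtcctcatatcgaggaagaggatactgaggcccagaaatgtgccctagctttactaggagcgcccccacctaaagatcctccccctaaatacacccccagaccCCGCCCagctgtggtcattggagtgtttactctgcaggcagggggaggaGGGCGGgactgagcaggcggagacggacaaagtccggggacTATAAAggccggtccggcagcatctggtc
CDKN1A: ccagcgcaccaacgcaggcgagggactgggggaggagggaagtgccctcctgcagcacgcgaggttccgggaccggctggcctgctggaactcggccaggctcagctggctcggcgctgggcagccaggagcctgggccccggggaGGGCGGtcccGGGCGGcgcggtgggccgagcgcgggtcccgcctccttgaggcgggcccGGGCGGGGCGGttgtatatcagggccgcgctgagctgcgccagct
ADM2: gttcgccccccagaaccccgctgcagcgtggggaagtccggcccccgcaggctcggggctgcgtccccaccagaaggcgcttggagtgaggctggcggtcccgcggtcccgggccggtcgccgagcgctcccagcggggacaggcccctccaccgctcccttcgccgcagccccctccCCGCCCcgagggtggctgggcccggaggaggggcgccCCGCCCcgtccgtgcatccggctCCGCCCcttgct
PTX3: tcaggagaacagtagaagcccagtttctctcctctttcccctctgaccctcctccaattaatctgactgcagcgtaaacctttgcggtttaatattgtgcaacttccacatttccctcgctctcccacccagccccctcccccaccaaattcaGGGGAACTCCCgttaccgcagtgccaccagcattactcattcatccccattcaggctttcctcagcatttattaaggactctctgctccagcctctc

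The 4 windows differed in their matches. GDF15, CDKN1A and ADM2 held GC boxes, with 2, 4 and 3 matches, and 42.6% of 35114 promoters of the same length held at least 1. GDF15 alone of the 4 held the exact string TATAAA, at 29 to 24 bases before its start, a motif found in 10.7% of all promoters. Variant forms of the TATA box were not searched, so the other windows cannot be said to lack one. PTX3 alone of the 4 held an NF-kappa-B site, as overlapping matches on both strands from 97 to 87 bases before its start, and 5.21% of all promoters held that motif. None of the 4 windows matched the antioxidant response element core TGACNNNGC (10.9% of all promoters), the AP-1 motif TGANTCA (6.57%), the cyclic AMP response element TGACGTCA (1.65%) or the ATF4 composite element core TGATGNAA (3.14%). The p53-binding decamer (5.57%), the E-box CACGTG (6.35%) and the heat shock unit pair GAANNTTC (5.78%) were likewise not matched within these 250 bases. The GC content was 58.4% for GDF15, 76.4% for CDKN1A, 78.8% for ADM2 and 51.6% for PTX3, against a median of 58.0% over all promoters, and no motif searched was present in all 4 windows.

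**Figure D1:**
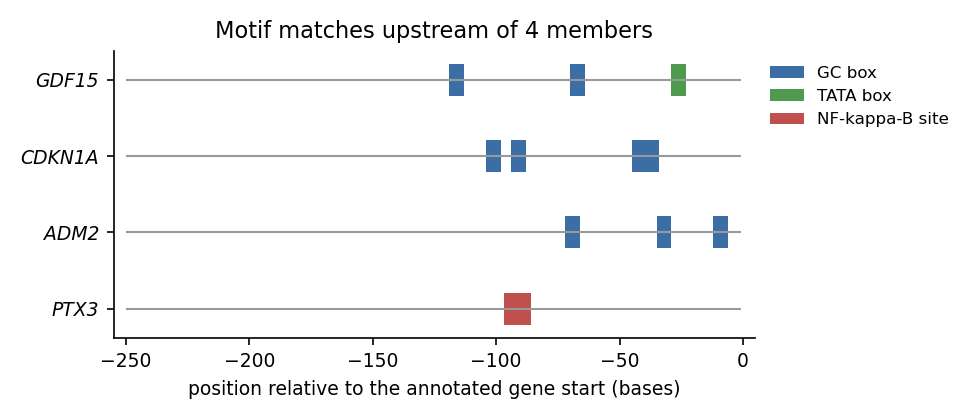
Positions of motif matches in the 250 bases upstream of 4 members. The horizontal axis is the distance in bases from the annotated gene start and each row is a gene. Coloured blocks are matches on either strand: GC boxes in GDF15, CDKN1A and ADM2, the TATA box in GDF15 and the overlapping NF-kappa-B matches in PTX3.

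Some measures of the whole series bear on all members. The genotype rests on the labels. NRAS and BRAF transcripts were not used here. Before scaling between samples, total counts ran from 1224135 to 1264660 for the wild-type line and from 1158510 to 1189613 for the mutant line. The deposited values, called normalized counts below, had been multiplied by factors of 0.898 to 0.903 (wild type) and 1.11 to 1.16 (mutant), so that 30 housekeeping genes had geometric means of 728 to 733 in each. On this scale the median log2 difference (mutant minus wild type) of the 454 genes above the detection floor was 0.32, so a member that fell did so while the typical gene lay higher. A detection floor of 129.7 was set from the negative control probes, at 2 SD above their mean. These probe values carry no sample factor, so the floor lies on the scale of counts before scaling. It was applied to the deposited values as it stands. Of the marker genes checked, the 4 melanoma markers on the panel (SOX9, MCAM, ERBB3 and CSPG4) were all above the floor in their mean over samples, and they summed to 3422 to 3459 (wild type) and 8544 to 8984 (mutant). No leukocyte marker was, though the highest single value, 157.75, exceeded the floor. PTPRC was at the lowest value listed for each sample, and summed levels were 95.4 to 132 (wild type) and 118 to 161 (mutant). The 5 endothelial markers summed to 507 to 571 and 726 to 901, with 3 above the floor, and the 7 fibroblast markers to 526 to 550 and 1498 to 1671, with 4 above the floor and COL1A2 at the lowest value listed for each sample. The part of these marker differences in the results below was not tested.

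HMOX1, the oxidant-responsive member, was lower in the mutant line by more than a factor of 10. It measured 2435, 2483 and 2373 normalized counts in the wild-type line, and 210.01, 189.7 and 199.9 in the mutant line. The lowest wild-type sample stood 11.3-fold above the highest mutant sample, and all 3 mutant samples remained above the detection floor. The means were 2430.4 ± 55.3 and 199.9 ± 10.2 (SD, n = 3 each), a 12.1-fold fall on the log2(value + 1) scale, to 8.22% of the wild-type level. Its log2 difference of -3.60 lay -3.92 from the median of the tested genes. In these bulk samples, fewer cells expressing a gene and less RNA per cell cannot be told apart.

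GDF15, the member that both p53 and ATF4 induce, was read well above the floor in wild-type cells and below it in mutant cells. The wild-type samples had 1253, 1199.5 and 1200.3 normalized counts and the mutant samples 18.4, 27.6 and 40.9. Because the mutant mean of 28.9 ± 11.3 was below the floor, the fall from 1218 ± 30.7 (SD, n = 3 each) is given only as a bound. The wild-type mean over the floor was 9.39. The floor lacks the factors of 1.11 to 1.16 that raised the mutant values, so 9.39 overstates the bound on the deposited scale. Without the factors, genes and controls share a scale, and GDF15 was at least 10.4-fold lower. Before scaling, the mutant samples held 15.8, 24.8 and 36.5 counts. These were below both of the brightest negative control probes in all 3 mutant samples, and above the highest of the other 6 probes in 1 of the 3. The spread among mutant samples, 39.1% of their mean, was thus that of values within the range of the negative controls.

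CDKN1A, encoding the cyclin-dependent kinase inhibitor p21, stayed abundant in both lines and had the smallest fall of the 3 members measured above the floor in both. The wild-type samples had 10565, 10115 and 10263 normalized counts and the mutant samples 6787, 6679 and 6724. The groups did not overlap, and the lowest wild-type sample exceeded the highest mutant sample 1.49-fold. The means were 10314 ± 229 and 6729.8 ± 54.2 (SD, n = 3 each), a 1.53-fold fall. The replicates varied by 2.22% of their mean in wild-type and 0.805% in mutant samples, against medians over tested genes of 3.48% and 3.64%.

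The secreted members PTX3 and ADM2 differed in how well they were measured. PTX3 had 2054, 2021 and 2051 normalized counts in the wild-type line, and 410.9, 425 and 360.03 in the mutant line. The coefficient of variation was 0.895% among the wild-type samples and 8.58% among the mutant samples, and the lowest wild-type sample was 4.75-fold above the highest mutant sample. The means of 2042 ± 18.3 and 399 ± 34.2 (SD, n = 3 each) gave a 5.12-fold fall, to 19.5% of the wild-type level. ADM2 had 58.4, 68.5 and 70.1 normalized counts in the wild-type line, and 40.5, 26.5 and 39.8 in the mutant line, so it was below the floor in every sample and has no fold. Its wild-type samples were all above its mutant samples, with means of 65.6 ± 6.35 and 35.6 ± 7.88 (SD, n = 3 each). Before scaling, ADM2 was below both of the brightest negative control probes in 6 of 6 samples and above the highest of the other 6 probes in 5. Of the 286 genes at or below the floor, 12.2% had every mutant sample below every wild-type sample, as ADM2 did. Genes at the lowest value listed in every sample (1.0 in wild-type, 1.11 to 1.16 in mutant samples) cannot have this pattern. The share among genes with some signal is therefore higher than 12.2%.

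**Figure D2:**
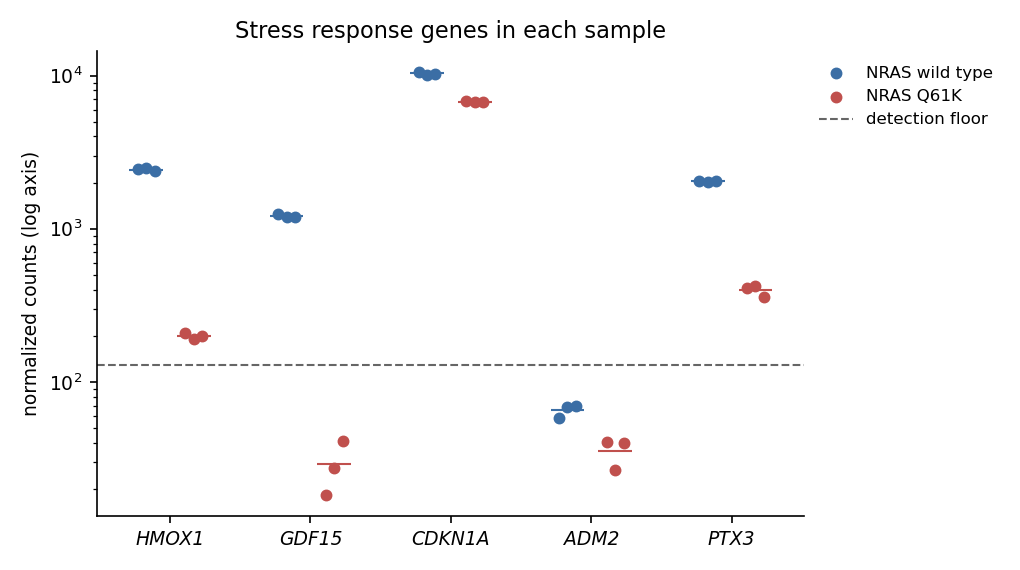
Normalized counts of the 5 genes in each sample, on a log axis. Blue points are the 3 NRAS wild-type samples, red points the 3 NRAS Q61K samples, short lines the group means and the dashed line the detection floor of 129.7. HMOX1, CDKN1A and PTX3 are above the floor in both lines, GDF15 only in wild-type cells, and ADM2 in neither.

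Among the 454 tested genes 95 were called lower in the mutant line at an adjusted p under 0.05 (limma), a background of 20.9%, and 282 were called higher, 62.1%. All Q61K samples lay below all wild-type samples for 21.1% of tested genes. Nothing is read from the 5 members against these shares, since they were picked for falling. Within the order of log2 differences from the deepest fall, GDF15 stood at position 1, HMOX1 at 5, PTX3 at 9 and CDKN1A at 39. The position of GDF15 rests on mutant values below the floor. A fall of 2-fold or more was fitted for 21 tested genes, or 4.63%, and CDKN1A is not among them on the deposited scale.

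**Figure D3:**
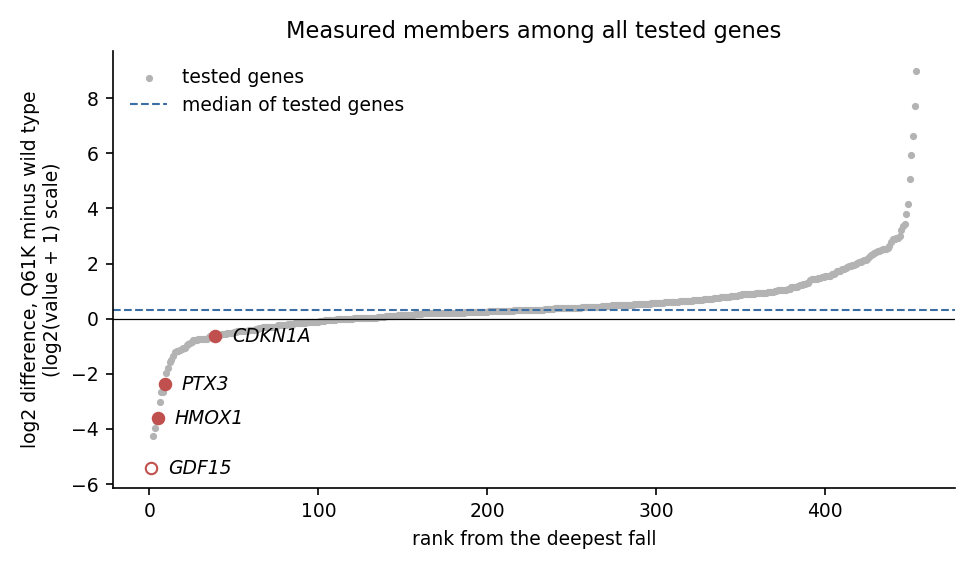
Log2 difference (mutant minus wild type, log2(value + 1) scale) of all 454 tested genes, in order from the deepest fall. Grey points are tested genes, the dashed line is their median of 0.32, filled red points are HMOX1, PTX3 and CDKN1A, and the open red point is GDF15, whose mutant values are below the detection floor. HMOX1 and PTX3 lie on the steep left end and CDKN1A on its shoulder.

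Each member lay lower in the mutant line under every scaling between samples that was tried, while the size changed. This cannot test the direction. The members were picked for falling on the deposited scale, and each other scaling moved the median over tested genes below its deposited 0.32. A fall on the deposited scale could thus hardly have turned. The values below show only how the size depends on the scaling. Undoing the factor of each sample moved the median over tested genes to -0.0079 (log2), rescaling to equal medians moved it to -0.13, and quantile normalization to -0.10. With these, the fall of HMOX1 was 15.2-fold, 16.6-fold and 16.3-fold, that of PTX3 6.44-fold, 7.01-fold and 6.82-fold, and that of CDKN1A 1.93-fold, 2.10-fold and 1.98-fold. The wild-type mean of GDF15 over the floor became 10.4, 10.98 and 11.1, and only the first has genes and controls on the same scale. The mutant samples of ADM2 were below the wild-type samples under each of these scalings, with means of 72.9 and 31.4, 76.8 and 30.4, and 74.7 and 32.5 counts.

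**Figure D4:**
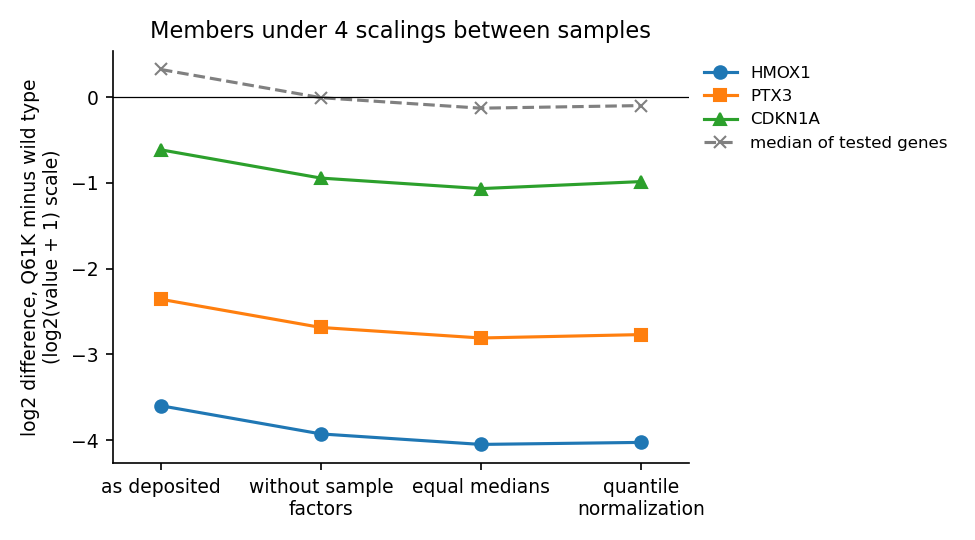
Log2 difference (mutant minus wild type, log2(value + 1) scale) of the 3 members above the detection floor in both lines under 4 scalings between samples. The dashed grey line is the median of the 454 tested genes under the same scaling. HMOX1, PTX3 and CDKN1A lie below 0 and below that median in each of the 4.

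The genes whose profile over the 6 samples came closest to each member were found by the root mean square distance between log2(value + 1) profiles, each centred on its mean, among 450 tested non-members. The line difference dominates this measure, so closeness mostly means a fall of similar size. HMOX1 was nearest to MISP (distance 0.211), an actin-bundling protein gene, to AREG (0.314), encoding an epidermal growth factor receptor ligand, and to FOXC2 (0.316), a forkhead transcription factor gene. All 3 had mutant means below the floor, so their distances and order are not a degree of likeness to HMOX1. For GDF15 the closest genes were CD24, a surface glycoprotein gene, MISP and FOXC2, at 0.636 to 0.927. The mutant means of GDF15 and of these 3 genes were all below the floor, so neither the distances nor their order can be read as a degree of likeness. PTX3 was nearest to ANGPTL4 (0.161), an inhibitor of lipoprotein lipase, to THBS1 (0.173), the matrix glycoprotein thrombospondin, and to the secreted metalloprotease gene ADAMTS1 (0.226). CDKN1A matched PGK1 (0.0147) and LDHA (0.0294), both of glycolysis, and SNRPF (0.0256), a spliceosome component, most closely. SNRPF fell by 0.59 on the log2 scale, from 14731 ± 71.3 to 9818 ± 204 (adjusted p = 3.66e-06, limma, n = 3 each). ADM2 was nearest to MYC, NAA15 and MMP3, at 0.144 to 0.206, but its own values were below the floor in every sample and the same limit holds. Between the 3 members above the floor in both lines, the distance was 0.628 for HMOX1 and PTX3, 0.874 for CDKN1A and PTX3, and 1.49 for HMOX1 and CDKN1A.

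The other stress genes on the panel went in both directions. The members were picked as stress genes that fall, and they are left out of the lists counted here and below. The lower counts are thus reduced in advance and cannot test whether stress genes fell together. The 6 lists of stress genes, grouped by function, named 168 non-members. Of these, 24 that are on the panel are reported here, and 19 were above the floor. Most listed genes are thus not covered, and the counts do not stand for whole pathways. Of these 19, 6 were lower and 10 were higher in the mutant line (limma, adjusted p under 0.05), or 31.6% and 52.6%, beside 20.9% and 62.1% of all tested genes. The median log2 difference of the 19 was 0.21, beside 0.32 for all tested genes. All 6 lower calls and 6 of the 10 higher calls held under each of the 4 scalings. The other scalings lower the median difference, so they favour lower calls. With equal medians, 11 were lower and 6 higher, beside 45.4% and 33.0% of all tested genes.

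Among oxidative stress and haem genes, the role of HMOX1, 4 others of 42 listed were on the panel, and they split between 2 lower and 2 higher, beside 20.9% and 62.1% of all tested genes. TXNIP, encoding an inhibitor of thioredoxin, fell 1.25-fold (364 ± 10.3 to 293 ± 22.7, adjusted p = 0.00311), and GPX1, a glutathione peroxidase, fell 1.13-fold (2926 ± 82.2 to 2594.5 ± 86.4, adjusted p = 0.00591). CYBB, a subunit of the phagocyte NADPH oxidase, was higher by 0.37 on the log2 scale as deposited (161 ± 1.87 and 209 ± 13.9, adjusted p = 0.000624), and its direction turned with equal medians and quantile normalization. The superoxide dismutase gene SOD1 was 1.16-fold higher (adjusted p = 0.0381), with its direction turned under the other 3 scalings. Its call was also lost without any 1 of the wild-type replicates or without mutant replicate 1 or 2 (adjusted p = 0.0791 to 0.108, all limma).

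Of 3 non-members reported here among p53 targets, the role of CDKN1A and GDF15, 2 were lower and 1 was higher, beside 20.9% and 62.1% of all tested genes. The tetraspanin gene CD82 rose 1.55-fold (248 ± 25.7 to 386 ± 27.4, adjusted p = 0.000613, limma), a call that was lost with equal medians (adjusted p = 0.0585). THBS1 fell 6.38-fold, from 29313 ± 465 to 4596 ± 43.6 (adjusted p = 2.20e-08), and the ephrin receptor gene EPHA2, named after its values were seen, fell 1.27-fold (adjusted p = 7.48e-05, limma). Beside CDKN1A, the cell cycle list held 2 tested genes: MYC, a growth-promoting transcription factor gene, fell 1.90-fold (773 ± 18.7 to 409.7 ± 57.2, adjusted p = 0.000162). RB1, encoding the retinoblastoma protein that cyclin-dependent kinases inactivate, was 1.25-fold higher as deposited (adjusted p = 0.000138) and turned lower under the other 3 scalings (limma). CDKN2A, encoding a further inhibitor of these kinases, was at the lowest value listed for each sample, which was 1.0 in the wild-type samples and 1.11 to 1.16 in the mutant samples.

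Of 27 non-members on the ATF4 and endoplasmic reticulum stress list, 2 are reported here. Of these, 1 was lower and 1 higher, beside the same 20.9% and 62.1% of all tested genes. VEGFA, a vascular growth factor gene that ATF4 can induce, fell 1.95-fold (2075 ± 67.2 to 1063 ± 4.30, adjusted p = 8.15e-07), whereas EIF2AK3, encoding the endoplasmic reticulum stress kinase PERK upstream of ATF4, rose 1.85-fold (198 ± 13.4 to 367 ± 8.08, adjusted p = 1.06e-05, limma, n = 3 each). In the list of stress kinases and AP-1 factors, JUN had 1137, 1069.5 and 1097 normalized counts in wild-type and 294, 317 and 347 in mutant samples. This AP-1 subunit gene fell 3.45-fold (adjusted p = 1.05e-06, limma), and the kinase gene MAP2K4, named after its values were seen, did not pass as deposited (541 ± 26.3 and 496 ± 24.8, adjusted p = 0.0700). MAP2K4 was called lower under the other 3 scalings, with log2 differences of -0.58 to -0.45. Both genes of the heat shock and chaperone list that were on the panel rose, beside 62.1% of all tested genes, whereas BAG2, a co-chaperone gene outside that list that was named after its values were seen, fell 1.36-fold (2696 ± 63.1 to 1990.2 ± 97.7, adjusted p = 0.000129, limma). HSPB1, a small heat shock protein gene, had 402, 307 and 327 normalized counts in wild-type and 990.4, 960.3 and 1055 in mutant samples, a 2.91-fold rise (adjusted p = 1.71e-05, limma). HSP90B1, the chaperone of the endoplasmic reticulum, rose 1.64-fold (2008 ± 78.6 to 3296 ± 76.1, adjusted p = 6.70e-06, limma).

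For the inflammatory role of PTX3, 11 other NF-kappa-B targets were on the panel and 6 were above the floor. Of these, 4 were higher and 0 were lower on the deposited scale (limma), with 0 lower at an unadjusted p under 0.05 as well, beside 62.1% and 20.9% of all tested genes. With equal medians 3 were higher and 3 lower, beside 33.0% and 45.4%. CXCL8, encoding the neutrophil chemoattractant interleukin 8, had 444, 430 and 406 normalized counts in wild-type and 1895, 1812 and 1747.5 in mutant samples, a 4.25-fold rise (adjusted p = 1.52e-07, limma). ICAM1, an adhesion receptor for leukocytes, rose 2.24-fold (457 ± 20.4 to 1025 ± 38.3, adjusted p = 1.55e-06) and the cytokine gene IL1A 1.97-fold (381 ± 17.4 to 752 ± 45.3, adjusted p = 8.05e-06, limma). NFKB1, encoding an NF-kappa-B subunit, was 1.22-fold higher as deposited (adjusted p = 0.00170, limma) and lay lower under the other 3 scalings. IL1B and C3 did not pass as deposited (adjusted p = 0.154 and 0.824, limma), and both were called lower under the other 3 scalings, with log2 differences of -0.36 to -0.20 and -0.44 to -0.31. Of the 5 members of the list below the floor, the prostaglandin synthase gene PTGS2, named after its values were seen, had 88.9, 100.05 and 89.8 normalized counts in wild-type and 28.8, 36.5 and 15.1 in mutant samples. The cytokine gene IL6, also named after its values were seen, had 26.03, 18.8 and 42.2 in wild-type and 16.1, 5.37 and 2.8 in mutant samples. Every mutant sample was below every wild-type sample for both, as for 12.2% of all genes at or below the floor. As said for ADM2, genes at the lowest value listed lower that share. TNF, VCAM1 and SELE, the rest of the 5 below the floor, did not have this pattern. TNF and VCAM1 were at or near the lowest value listed for each sample. SELE had 1.8, 1.0 and 1.0 in wild-type and 6.77, 1.11 and 1.12 in mutant samples.

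**Figure D5:**
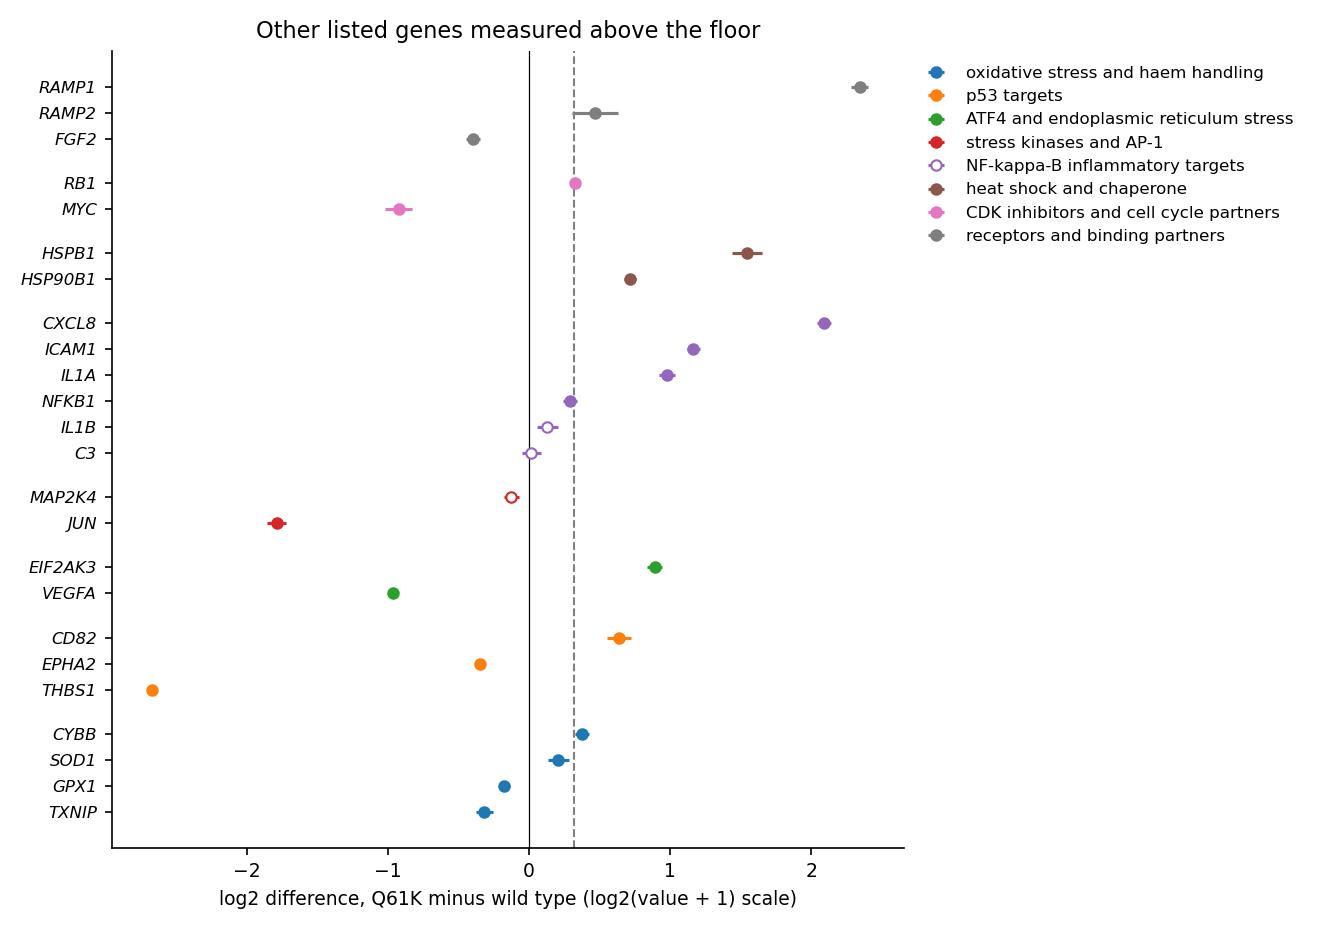
Log2 difference (mutant minus wild type, log2(value + 1) scale) of non-member genes of the stress and partner lists that are reported here and lie above the detection floor. Points are fitted differences with bars of 1 standard error, filled where the adjusted p was under 0.05 (limma), coloured by list, and the dashed line is the median of all tested genes, 0.32. Members of most lists fall on both sides of 0, from THBS1 at -2.67 to RAMP1 at 2.34, and CYBB, SOD1, NFKB1, RB1, IL1B and C3 lay lower under at least 2 of the other scalings, and IL1B, C3 and MAP2K4 were called lower under all 3.

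Receptors and binding partners of the secreted members were measured in part. Adrenomedullin 2 acts through the receptor CALCRL paired with an accessory protein of the RAMP family. RAMP1 had 280, 256 and 242 normalized counts in wild-type and 1367, 1287 and 1294 in mutant samples, a 5.07-fold rise (adjusted p = 2.41e-07, limma, n = 3 each) that kept its call under all 4 scalings. RAMP2 was 1.38-fold higher (163 ± 16.5 to 229 ± 49.7, adjusted p = 0.0343), a call that was lost under the other 3 scalings. The RAMP2 call was also lost without any 1 of the wild-type replicates or without mutant replicate 2 (adjusted p = 0.0537 to 0.107, limma). CALCRL itself was below the floor in every sample, at 10.8, 7.97 and 7.19 in wild-type and 27.7, 39.8 and 40.9 in mutant samples. FGF2, the growth factor that pentraxin 3 binds, fell 1.32-fold, from 1746 ± 21.5 to 1327 ± 78.3 (adjusted p = 0.000309, limma). FGF2 kept that call under all 4 scalings, though the other scalings favour lower calls. Levels are given per gene and were not compared between genes, since each probe has its own efficiency.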

How the data were processed

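Total RNA of 6 samples was read on the nCounter PanCancer Progression panel, per the labels. The deposited signal values are linear, 1 per gene and sample, and from the values each equals a whole count minus a background times 1 factor per sample, held at a minimum of 1 (all gene values between 1.5 and 400 came out whole within 0.03 of a common fraction). The software and settings the authors used are not given in the sources used here. Of 770 gene rows, matched to RefSeq symbols (755 current, 15 older), 740 were endogenous and 30 housekeeping, the latter assigned from knowledge of the panel. There were 8 negative control probes. The 454 endogenous genes with a mean above 129.7 were fitted with limma 3.58.1 in R 4.3.3 on log2(value + 1), mutant minus wild type, 2-sided, with Benjamini-Hochberg adjustment over all 454. The scale understates changes of low genes. The values derive from digital counts, but no counting interval was computed, errors are the spread between samples, and 3 samples per line limit the precision.

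Named genes were the members, up to 4 called genes of each list with the largest absolute difference, all receptors and partners on the panel, and the 3 nearest profiles of each member. BAG2, MAP2K4, PTGS2, IL6, CDKN2A, IL1B, C3, TNF, VCAM1 and SELE were named outside this rule. Results for some listed genes are not reported here, and counts over lists leave those genes out. Members, lists and tests were chosen with earlier results of these data known. The fit was tested on simulated data. Alternatives were 3 other scalings, a pseudocount of 16, no floor, a floor 2 times as high, an intensity trend, a replicate block and leaving out each sample. Promoters came from RefSeq tables.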

Additional observations from a re-analysis of the deposited data

How the results depend on the processing

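The members and the listed genes depended on the scaling between samples more than on any other choice tried. Without the sample factors, with equal medians and with quantile normalization, the log2 difference was -3.93, -4.05 and -4.03 for HMOX1, -0.95, -1.07 and -0.99 for CDKN1A, and -2.69, -2.81 and -2.77 for PTX3. The wild-type mean of GDF15 over the floor was 10.4, 10.98 and 11.1. The difference of ADM2 was -41.6, -46.4 and -42.2 normalized counts, against -30.1 as deposited. A pseudocount of 16 gave -3.50 for HMOX1. Over all tested genes, 160, 206 and 199 were called lower and 175, 150 and 156 higher, against 95 and 282 as deposited. With equal medians 11 listed stress genes were lower and 6 higher, against 6 and 10. Leaving out each sample in turn gave 91 to 97 genes lower and 258 to 284 higher over all tested genes. It gave 6 to 7 listed stress genes lower and 9 to 11 higher. Differences were -3.63 to -3.56 for HMOX1, -0.63 to -0.60 for CDKN1A, -2.41 to -2.29 for PTX3 and -33.7 to -25.5 counts for ADM2. The wild-type mean of GDF15 over the fixed floor was 9.25 to 9.46, a value that cannot depend on the mutant samples. Of 32 named genes tested, 26 kept direction and call under each of the 14 alternatives in which they were fitted. The exceptions were CD82, CYBB, NFKB1, RAMP2, RB1 and SOD1. With the floor 2 times as high, MISP, FOXC2, CYBB and RAMP2 were not fitted. Turned log2 differences without the sample factors, with equal medians and with quantile normalization were -0.037, -0.16 and -0.13 for NFKB1, -0.0045, -0.13 and -0.12 for RB1 and -0.12, -0.24 and -0.18 for SOD1, and for CYBB -0.075 and -0.067 with the last 2. The cause was not tested. Replicate numbers are shared between the lines, but same-numbered samples deviated together with r = 0.22, 0.053 and 0.066 across genes, and with the replicate block 392 genes were called, 93 lower and 299 higher, with 7 and 10 of the listed stress genes. Signal over background limits GDF15 in mutant cells and ADM2 in both lines.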
